A study of Xenopus laevis with 18 samples.

Results

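Poly(A)+ RNA of whole Xenopus laevis embryos (J strain, an inbred line of the African clawed frog) was compared between the end of gastrulation (stages 12, 14 and 16) and its onset (stages 8.5, 9 and 10), which took 6 of the 18 libraries of a series that followed mRNA through development. Stages are those of Nieuwkoop and Faber: stages 8.5 and 9 are blastulae, gastrulation begins at stage 10 and is nearly over at stage 12, and stages 14 and 16 are early neurulae. The libraries were chosen by stage alone. All embryos were raised in dilute salt medium with gentamycin, the labels name no genotype, allele or agent that sets the stages apart, each stage was sampled by 1 library, and the sources used here do not say how many embryos or clutches went into one. The 6 libraries of stages 0 to 8 and the 6 of stages 18 to 33 were not used to call a change and served to follow the called gene models before and after.

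At gastrulation the cells of the embryo are rearranged into ectoderm, mesoderm and endoderm. The egg stores mRNA made by the mother, transcription from the zygotic genome starts in earnest at the mid-blastula transition, and much of the maternal store is then removed. In Xenopus the microRNA miR-427, transcribed from the embryonic genome, promotes the shortening of poly(A) tails of maternal mRNAs, and transcription factors first made in the blastula and early gastrula turn on the genes of the germ layers. A library selected on poly(A) tails reads tail length together with amount. A fall can be a lost tail or a lost mRNA, and a rise can be a longer tail or more mRNA. These cannot be told apart here. In whole embryos, fewer cells of a type and less RNA per cell cannot be told apart either.

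The values are TPM (a model's share of a library's transcripts, set to a fixed total) of 31357 gene models and 88 spike-ins, synthetic RNAs added to each sample. The models carry the authors' identifiers: no gene names stand beside them, and 0 of the identifiers matched the reference table, so no gene, pathway or sequence can be given and single models are named by identifier, at most 2 that rose and 2 that fell for each question. Copies with near-identical sequence, common in this genome of tetraploid origin, may share reads. TPM holds no depth, so no counting error can be given.

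Libraries at stages 8.5 and 10 stood apart in composition. A pair of models, XeXenL6RMv10031603m and XeXenL6RMv10023270m, took up 19.9% of the deposited gene-model TPM in the stage 8.5 library and 38.9% in that of stage 10. Both were listed at 0 in the libraries of stages 9, 12, 14 and 16. The pair and the spike-ins were left out and each library was rescaled to 1000000. The most abundant remaining models were also uneven: XeXenL6RMv10008034m stood at 51185, 15853 and 17202 TPM at stages 12, 14 and 16, against 48438, 32841 and 82461 TPM at stages 8.5, 9 and 10, and XeXenL6RMv10023271m stood at 47262, 24414 and 25200 TPM, against 32794, 32172 and 86444 TPM. Neither separated the sides. Stage 10 was high in both models, and its values for other models are lower by that share. Rescaling without these models as well, an alternative chosen after seeing the data, left 2210 models consistently higher and 7953 lower, beside 2268 and 7497 as reported below. Without the stage 10 library the numbers were 2469 and 8646.

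Gene expression was rebuilt between the sides, with far more models losing than gaining share. A filter of 5 TPM, to be reached in 2 or more of the 6 libraries, left 16136 models. Of these, 2268 were consistently higher at the end of gastrulation (14.1% of the models tested) and 7497 consistently lower (46.5%), which makes 60.5% in either direction. Consistent means that all 3 libraries of one side lay above all 3 of the other, with a mean difference of at least 1 on the log2(TPM + 1) scale. The added 1 makes the changes of low models look smaller than they are. The rising models had a median difference of 2.39 (quartiles 1.63 and 3.29) and the falling models one of -2.06 (quartiles -2.67 and -1.57), beside a median of -0.998 over all models tested. Rises reached farther: 307 rising models (13.5%) and 293 falling models (3.91%) differed by 4 or more, and 53 and 24 by 6 or more.

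limma, fitted to the 6 libraries with Benjamini-Hochberg adjustment over all 16136 models, called 2711 models higher (16.8%) and 8307 lower (51.5%) at an adjusted p under 0.05. Of the consistent models, 2240 of 2268 rising and 7421 of 7497 falling ones were among its calls. Rule and fit use the same values of the same libraries, so this overlap follows largely from the rule and is not independent support. The libraries of a side are different stages, so the spread in this test holds development as well as error. Without the stage 14 library limma called 1788 higher and 6807 lower. The spike-ins give the error of preparation and sequencing alone. Of the 40 spike-ins that averaged 10 TPM or more and were never at 0, taken as shares of their own total, 0 rose and 1 fell consistently (2.5%), and the SD of their differences was 0.30 on the log2 scale. On that scale the spike-ins cannot show the shift of the median gene model, and their filter was not that of the gene models. The spike-in that fell was a rare one, at 18.0, 5.66 and 12.6 TPM at the end against 27.3, 23.2 and 20.0 TPM at the onset.

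**Figure D1:**
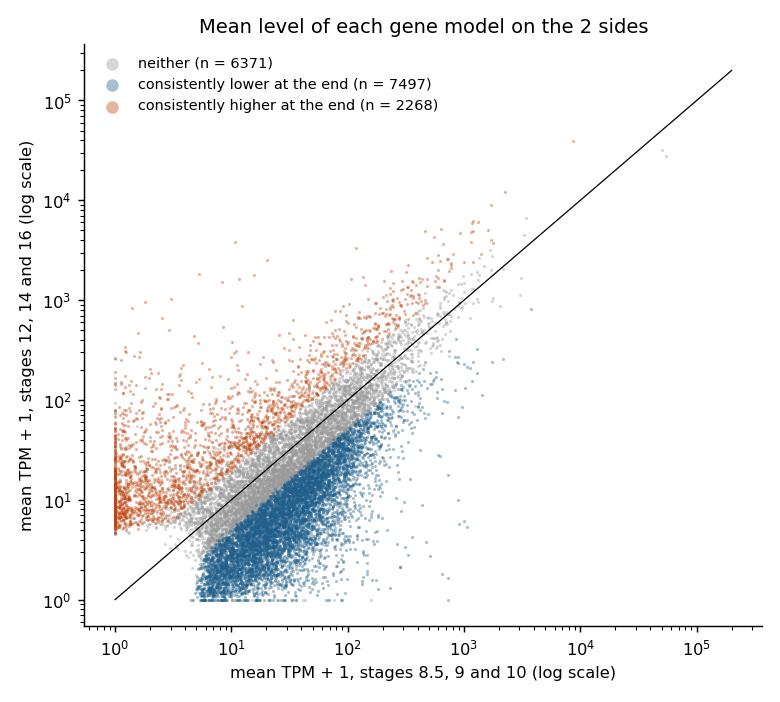
Mean level of each of the 16136 gene models tested, as TPM + 1 on log axes, in the libraries of stages 12, 14 and 16 (vertical) and of stages 8.5, 9 and 10 (horizontal); the line marks equal levels. The 2268 rising models reach from models near 0 at the onset to the most abundant ones, while the 7497 falling models lie mostly below 100 TPM at the onset.

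The separation was wide for about as many models as it was narrow. For 1206 rising models (53.2%) and 3682 falling models (49.1%) the gap between the sides exceeded the range within either side. The median gap was 1.22 for rising models, with median ranges of 0.79 within the end and 0.66 within the onset. For falling models the gap was 1.08, with ranges of 0.71 and 0.86. Close to the limit of 1, 86 rising and 283 falling models had a difference under 1.1, and 80 and 296 further models with separate sides had one from 0.9 to 1. Another 915 models differed by 1 or more but overlapped, 353 of them higher and 562 lower. Of these, 632 would have separated without the stage 10 library and 274 without stage 12, against 57 to 237 for the other 4 libraries taken singly.

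How many models fell depended on the scale, and how many rose did so in the other direction. A share can fall because others grow. Dividing each library by its median ratio to the mean library moved the median difference of all models to 0.12, and then 4523 models rose and 3540 fell consistently, so that rising models were 56.1% of the calls, against 23.2% as TPM. All 2268 rising models were among the 4523, and the 3540 were all among the 7497. With quantile normalization 3762 rose and 4208 fell (47.2% rising, median difference -0.13). Scaled to the spike-ins 2093 rose and 6991 fell (23.0%, median -1.05), and in TPM as deposited 2675 and 5439 (33.0%, median -0.69). Under all 5 scalings 1995 models rose (88.0% of the rising models) and 3449 fell (46.0% of the falling models). Single models are therefore also given relative to the median model.

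Per unit of spike-in, rising models summed to more and falling models to less at the end, and the total of the models kept here did not separate the sides. Gene models summed to 12.6, 12.9 and 14.5 TPM for each TPM of spike-in at stages 12, 14 and 16, against 17.3, 13.7 and 10.8 at stages 8.5, 9 and 10. The pair of models left out above is not in these sums. It held 19.9% of the deposited gene-model TPM at stage 8.5 and 38.9% at stage 10, so with it the totals of those libraries would be higher. Rising models summed to 4.65, 6.37 and 7.00 at the end, against 1.42, 1.32 and 1.52 at the onset. Falling models summed to 1.36, 0.947 and 1.12, against 7.50, 5.78 and 3.04. Both sets were picked on these same libraries, so the direction of their sums follows in large part from that choice. How much spike-in was added per embryo or per RNA was not stated in the labels.

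At the end of gastrulation fewer models held the bulk of the TPM. At the end, 306, 294 and 334 models at stages 12, 14 and 16 held 50% of the TPM, against 1397, 1315 and 547 at stages 8.5, 9 and 10. The sides did not overlap (exact permutation test, two-sided, p = 0.1, the smallest that 3 libraries against 3 allow). The 100 most abundant models of a library held 34.9% ± 1.23 of the TPM at the end and 23.8% ± 7.11 at the onset (SD, n = 3 stages each), with stage 10, the highest of the onset at 32.1%, next to the lowest of the end, 33.5% at stage 16 (exact permutation p = 0.1). The number of models at 1 TPM or more did not separate the sides, with 17100 ± 741 at the end and 17389 ± 132 at the onset (exact permutation p = 0.7). The number of models listed at 0 did, with 10163 ± 671 at the end and 11623 ± 165 at the onset (exact permutation p = 0.1). Zeros can also depend on the depth of a library, which is unknown here, and this was not tested.

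Within the 6 libraries, the direction of change went with abundance. Among the 78 models with a mean of 1000 TPM or more over the 6 libraries, 46 rose (59.0%) and 2 fell. From 300 to 1000 TPM 38.4% rose and 12.7% fell, and from 100 to 300 TPM 18.7% and 22.6%. Among the 5672 models of 10 to 30 TPM 9.73% rose and 53.3% fell, and among the 4736 models under 10 TPM 18.3% and 47.7%. Median-of-ratios scaling, chosen for this count after seeing the data, kept the abundant models ahead: 80.8% rose and 2.56% fell at 1000 TPM or more, and 19.2% and 28.4% at 10 to 30 TPM. Of the 100 most abundant models at the end, 72 were rising and 0 falling models, and of the 100 most abundant at the onset 23 were rising and 28 falling ones. The lists shared 47 models. Bins and lists rest on the same libraries as the calls, and a list ranked on the end libraries favours rising models by construction. Between single libraries, the lists of stages 16 and 14 shared 91 models, those of stages 9 and 8.5 shared 89, and those of stages 16 and 8.5 shared 35.

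**Figure D2:**
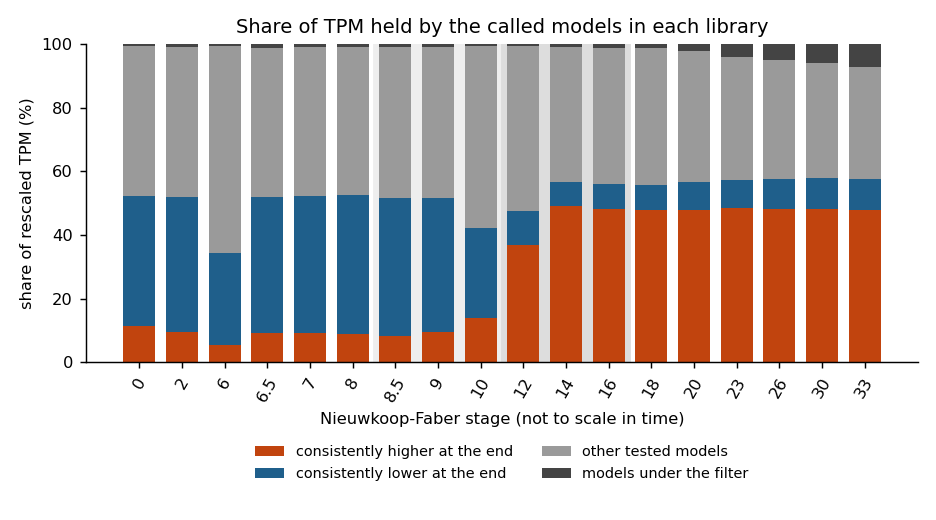
Share of the rescaled TPM (vertical, %) held in each of the 18 libraries (horizontal, by stage) by models consistently higher at the end of gastrulation, models consistently lower, other tested models and models under the filter. The rising models held 9.61% of the TPM in the stage 9 library, 36.8% in stage 12 and 48.3% in stage 16, and stages 6 and 10 stand out by the share of other models.

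The 2268 rising models came to hold close to 50% of the TPM and kept it. They held 36.8%, 49.2% and 48.3% at stages 12, 14 and 16, against 8.21%, 9.61% and 14.0% at stages 8.5, 9 and 10. Falling models held 10.8%, 7.33% and 7.69%, against 43.3%, 42.0% and 28.1%. These shares follow models picked on the same libraries. In the libraries not used to pick them, the rising models held from 47.7% to 48.3% at stages 18 to 33, against 5.59% (stage 6) to 11.4% (stage 0) at stages 0 to 8. The falling models held from 7.83% to 9.88% at stages 18 to 33, against 28.8% to 43.8% at stages 0 to 8. The 100 rising models most abundant at the end alone held 21.9%, 28.8% and 27.2%, against 4.18%, 5.37% and 8.51%.

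More models moved between stages 10 and 12 than at any other of the 5 steps. The models were compared library by library, after centring each step on the median model, among the 11400 models that averaged 10 TPM or more. A step sets 1 library against 1 other, so it has no test. From stage 10 to 12, 2357 models were more than 2-fold higher (20.7%) and 2280 more than 2-fold lower (20.0%), while 0 of the 40 spike-ins passed. From stage 9 to 10 the numbers were 1009 (8.85%) and 1031 (9.04%), with 1 spike-in past 2-fold. From stage 12 to 14 they were 856 (7.51%) and 1080 (9.47%), also with 1 spike-in.

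Within the ends of the window little moved. From stage 8.5 to 9, 353 models were higher (3.10%) and 120 lower (1.05%), and from stage 14 to 16, 217 (1.90%) and 176 (1.54%), with 2 of 40 spike-ins past 2-fold at each step. At both steps the share of models past 2-fold was no larger than that of the spike-ins. Stages are not equally spaced in time, so the counts are not rates.

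**Figure D3:**
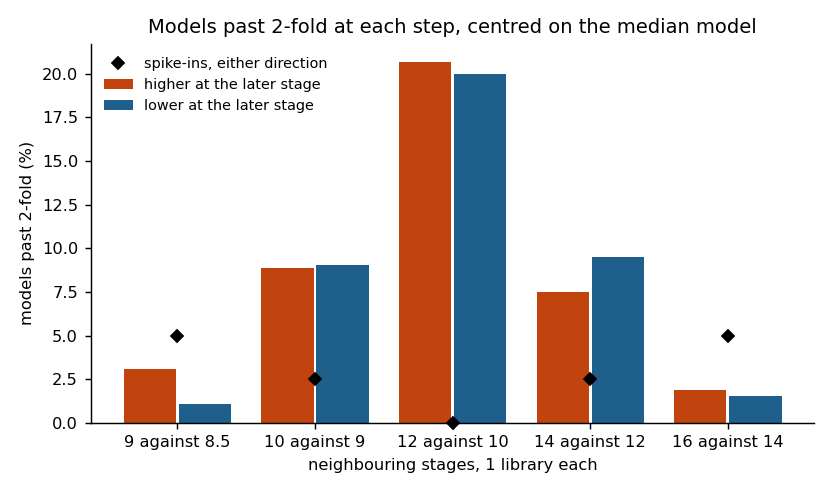
Share of 11400 gene models (bars, %) more than 2-fold higher or lower at the later of 2 neighbouring stages, each step centred on its median model, and share of 40 spike-ins past 2-fold in either direction (diamonds). The step to stage 12 has the tallest bars, 20.7% and 20.0%, and no spike-in past 2-fold.

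The largest step of a called model was most often the one to stage 12, which the choice of models favours: it is the only step that crosses between the sides, so it runs in the called direction in each of them. For 1580 of the 2268 rising models (69.7%) and 5253 of the 7497 falling ones (70.1%) the largest of the 5 steps in their own direction was the one to stage 12. The median step from stage 10 to 12 was 1.54 for rising and -1.41 for falling models, beside -0.60 over all models tested. Fewer had their largest step from stage 9 to 10: 257 rising models (11.3%) and 1341 falling ones (17.9%). Some had moved by then without it being their largest step. At stage 10, 437 rising models (19.3%) were more than 1 on the log2 scale above both stages 8.5 and 9. Likewise 2225 falling models (29.7%) were more than 1 below both. The step to stage 14 was the largest for 363 rising (16.0%) and 822 falling models (11.0%). A steady climb through all 6 stages was seen in 251 rising models and a steady decline in 726 falling ones.

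Falling models led at stage 10 in TPM, and this order depended on the scale. With the mean of stages 8.5 and 9 set to 0% and that of stages 14 and 16 to 100%, the median falling model had covered 30.6% of its change at stage 10 (quartiles 14.3% and 48.5%) and 92.4% at stage 12, and the median rising model 10.6% (quartiles 0% and 33.7%) and 78.7%. These medians cover the 7450 falling and 2232 rising models whose 2 means differ by 1 or more. Median-of-ratios scaling over the 18 libraries, chosen after seeing the data, left 4388 such falling models. On these 4388, the median at stage 10 was 15.3% after that scaling and 29.9% in TPM. On the 2232 rising models it was 19.2% after that scaling and 10.6% in TPM. These percentages are also limited by the choice of models, since a model that had made most of its change by stage 10 tended to overlap between the sides and not to be called. The rise went on for some: 716 rising models (31.6%) were more than 1 on the log2 scale higher at stage 16 than at stage 12, and 39 more than 1 lower.

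The rising models divide by their poly(A)+ level in the earlier libraries. A low level there can be little mRNA or mRNA with a short tail, which cannot be told apart here. In the 6 libraries of stages 0 to 8, 992 of them (43.7%) had a median under 0.5 TPM and are called low. A further 848 (37.4%) had 5 TPM or more and are called present, and 428 (18.9%) lay between. Which class is larger depended on the scale: after median-of-ratios scaling over the 18 libraries 1329 rising models were low and 2417 present. Over all models tested, 8.35% were low and 84.3% present. Of the 1348 low models tested 73.6% rose and 1.41% fell, and of the 13605 present ones 6.23% rose and 53.1% fell. A low model could pass the filter only by 5 TPM or more in 2 or more of the 6 libraries, so the first share follows in part from the filter.

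Low and present models differed in size of change and in level, as the class limits and the filter favour: a low model starts near 0 and was tested only if it became high. Low models had a median difference of 3.19 and median levels of 13.7 TPM at the end, against 0.29 TPM at the onset. Present models had a median difference of 1.59, with 116 TPM at the end, against 34.3 TPM at the onset. Low models held 3.14% of the TPM at stage 12 and 5.94% at stage 16, while present models held 32.2% and 40.0%. Of the 100 rising models most abundant at the end, 89 were present and 8 low before. The largest step was the one to stage 12 in 60.4% of the low models and the one to stage 10 in 13.4%, beside 81.3% and 7.78% of the present ones. In 272 rising models all 3 onset libraries were listed at 0, and their end means had a median of 9.71 TPM and a maximum of 265 TPM.

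XeXenL6RMv10040844m had the largest rise in the contrast on the log2(TPM + 1) scale and the highest end level among low models. With 0.1 TPM added in place of 1 its difference was 10.87, below the 11.55 of XeXenL6RMv10025985m, so their order depends on the added value. It stood at 1872, 4804 and 4866 TPM at stages 12, 14 and 16, against 0, 2.42 and 26.6 TPM at stages 8.5, 9 and 10. The difference was 9.60 ± 1.03 (SE) on the log2 scale, 10.59 above the median model (limma adjusted p = 0.00036). It was listed at 0 at stages 2 to 8, stood at 13.0 TPM at stage 0 and kept a median of 5099 TPM in the later libraries. The stage 0 value is one of the low stage 0 values of 42 rising models, at most 0.48% of the later mean, described under other observations. The onset libraries climb towards stage 10, and the sides are far apart.

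XeXenL6RMv10025985m, the next largest rise on the log2(TPM + 1) scale, stood at 294, 1042 and 1152 TPM at the end, against 0, 0 and 1.22 TPM at the onset. The difference was 9.08 ± 0.56 (limma adjusted p = 0.000108), 10.08 above the median model. At stage 10 it was still near 0, unlike XeXenL6RMv10040861m, the other low model named for its level. XeXenL6RMv10040861m stood at 2229, 3922 and 3873 TPM at the end, against 1.16, 21.5 and 326 TPM at the onset. Its difference was 7.01 ± 1.47 (limma adjusted p = 0.00356), 8.01 above the median model. All 3 of these models were at their highest in or after stage 14.

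The 2 present models with the largest gain in TPM among consistently rising ones have consecutive identifiers, and the files do not say what that means. XeXenL6RMv10001743m stood at 32017, 49369 and 36859 TPM at the end, against 5043, 10028 and 11112 TPM at the onset, a 4.52-fold difference of means and 2.23 ± 0.42 on the log2 scale (limma adjusted p = 0.00223). XeXenL6RMv10001744m stood at 7799, 14409 and 14230 TPM, against 1171, 1771 and 3783 TPM, a 5.42-fold difference and 2.56 ± 0.46 on the log2 scale (limma adjusted p = 0.00185). Relative to the median model they rose by 3.23 and 3.55. Both were highest at stage 14, and by the later median of 17307 TPM XeXenL6RMv10001743m came back nearer to its onset level. With quantile normalization XeXenL6RMv10001743m kept a difference of 1.16 but not its call (limma adjusted p = 0.102, the highest of 21 alternatives, whose lowest was 2.28e-06). There XeXenL6RMv10001744m had a difference of 1.21 and kept its call (limma adjusted p = 0.0454, the highest of its 21 alternatives, whose lowest was 1.97e-06).

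**Figure D4:**
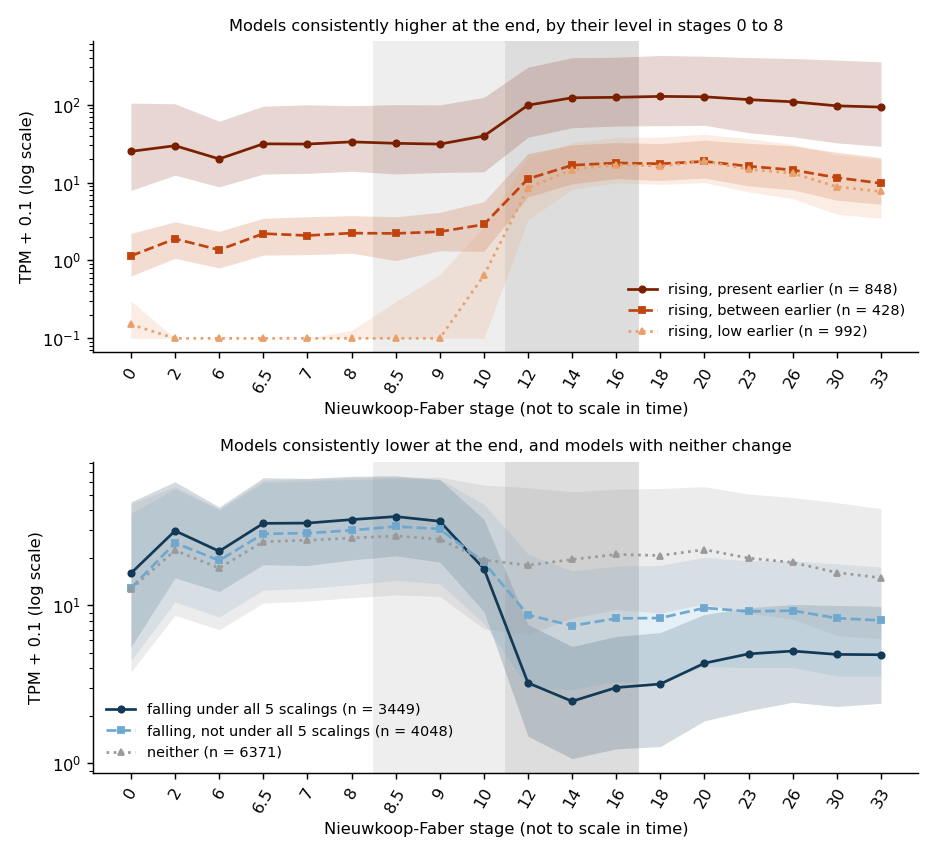
Median TPM + 0.1 (vertical, log axis; bands, quartiles over models) over the 18 stages for rising models by their level in stages 0 to 8 (upper panel) and for models that fell under all 5 scalings, other falling models and models with neither change (lower panel); light grey marks the onset libraries and darker grey the end libraries. The median of the low rising models was 0 TPM at stage 9, 0.54 at stage 10 and 8.39 in the stage 12 library, and both falling groups stay below their onset level through stage 33.

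Nearly all falling models had been present before the onset. Of the 7497, 7222 (96.3%) had a median of 5 TPM or more over stages 0 to 8, beside 84.3% of all models tested. A further 256 lay between and 19 were low. A falling model could pass the filter only through onset libraries, which come directly after stage 8, so the 96.3% follows in part from the filter. The 84.3% also covers models that passed through the end libraries alone, so the shares are not like for like. At stage 0 alone the lower quartile of the falling models was 4.80 TPM. Over the falling models the median was 5.18, 4.34 and 4.85 TPM at stages 12, 14 and 16, against 34.0, 32.1 and 17.8 TPM at stages 8.5, 9 and 10. Falls were seldom complete at this point: 6482 falling models (86.5%) still averaged 1 TPM or more at the end, 1809 (24.1%) were under 0.1 of their onset mean, and 73 were listed at 0 in all 3 end libraries. The 3449 models that fell under all 5 scalings had a median difference of -2.71, and 3418 of them were present before, under the same limit of the filter.

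XeXenL6RMv10016014m, the largest fall, was listed at 0 at stages 12, 14 and 16, against 842, 632 and 692 TPM at stages 8.5, 9 and 10. The difference was -9.49 ± 0.25 (SE) on the log2 scale, and -8.49 relative to the median model (limma adjusted p = 1.56e-06). Its earlier median was 1657 TPM. The 3 onset libraries lie close together, and each library after stage 10 had it at 0.

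XeXenL6RMv10000530m was low already at stage 10 beside the other onset libraries. It stood at 0.92, 0.36 and 0.70 TPM at the end, against 1174, 876 and 137 TPM at the onset, and the difference was -8.31 ± 0.71 (limma adjusted p = 0.00025), or -7.31 relative to the median model. XeXenL6RMv10030256m was listed at 0 in the 3 end libraries, against 106, 69.1 and 88.2 TPM at the onset (difference -6.45 ± 0.35, limma adjusted p = 7.4e-05; -5.45 relative to the median model). With 0.1 or 5 TPM added in place of 1, the difference was -9.76 or -4.19. It was also at 0 at stage 6.5 and in 3 of the 6 later libraries, with up to 17.2 TPM in the others, so zeros were also listed outside the end of gastrulation.

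Among consistently falling models, the 2 with the largest loss in TPM declined over several stages. XeXenL6RMv10046212m stood at 1403, 612 and 410 TPM at the end, against 4195, 3737 and 3312 TPM at the onset, a difference of -2.40 ± 0.41 on the log2 scale (limma adjusted p = 0.00155). It went on to 5.03 TPM at stage 33. XeXenL6RMv10035394m stood at 548, 135 and 82.8 TPM, against 2078, 2148 and 2305 TPM, a difference of -3.56 ± 0.59 (limma adjusted p = 0.0013). In both the onset libraries lie close together and the end libraries still fall. Relative to the median model the differences were -1.40 and -2.56. After median-of-ratios scaling XeXenL6RMv10046212m kept a difference of -1.34 but not its call (limma adjusted p = 0.0593, the highest of 21 alternatives, whose lowest was 3.98e-05).

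The libraries not used for the calls showed the same ordering for most models. All 6 later libraries lay above all 6 earlier ones in 1907 rising models (84.1%), beside 2848 of all models tested (17.6%). All 6 later libraries lay below all 6 earlier ones in 4349 falling models (58.0%), beside 5358 of all models tested (33.2%). The opposite order was met in 1 rising and 3 falling models.

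By the median of the later libraries, 1960 rising models (86.4%) stayed nearer to their end level or went past it, and 308 (13.6%) came back nearer to their onset level. The share that came back was 9.78% of the low, 12.1% of the between and 18.8% of the present models. Their median differences were 3.19, 2.21 and 1.59. By this measure a model with a smaller change needs a smaller shift to come back, and the part of this in the order was not tested. Of the falling models 6390 (85.2%) stayed down and 1107 (14.8%) came back. These shares hold for TPM. After median-of-ratios scaling over the 18 libraries, 888 falling models came back, out of a much smaller falling set. On that scale 3290 falling models had been present before, against 7222 in TPM. Of the 73 models at 0 in the 3 end libraries, 25 had a later median of 1 TPM or more and 7 were at 0 in all later libraries.

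XeXenL6RMv10029564m and XeXenL6RMv10013285m rose most among the models that came back. XeXenL6RMv10029564m stood at 67.2, 274 and 162 TPM at the end, against 0, 0 and 2.43 TPM at the onset (difference 6.59 ± 0.64, 7.59 relative to the median model, limma adjusted p = 0.000297), and later at 206 TPM (stage 18), 23.9 TPM (stage 20) and 0.99 TPM (stage 33). XeXenL6RMv10013285m stood at 335, 628 and 639 TPM at the end, against 5.01, 7.37 and 10.2 TPM at the onset (difference 5.96 ± 0.33, 6.96 relative to the median model, limma adjusted p = 7.4e-05), and later at 621 TPM (stage 18), 225 TPM (stage 20) and 0.30 TPM (stage 33). Both ran high through the early neurula and were low again in the tailbud.

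XeXenL6RMv10001080m and XeXenL6RMv10022754m fell most among the models that came back. XeXenL6RMv10001080m stood at 2.02, 1.44 and 2.65 TPM at the end, against 211, 152 and 38.3 TPM at the onset (difference -5.18 ± 0.59, -4.18 relative to the median model, limma adjusted p = 0.000418), and climbed through 9.56 TPM at stage 20 to 107 TPM at stage 33. XeXenL6RMv10022754m stood at 2.12, 1.36 and 2.97 TPM, against 124, 101 and 59.8 TPM (difference -4.90 ± 0.38, -3.90 relative to the median model, limma adjusted p = 0.000229), and climbed through 5.88 TPM at stage 20 to 35.8 TPM at stage 33. Neither regained its earlier median, of 250 and 104 TPM, by stage 33.

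**Figure D5:**
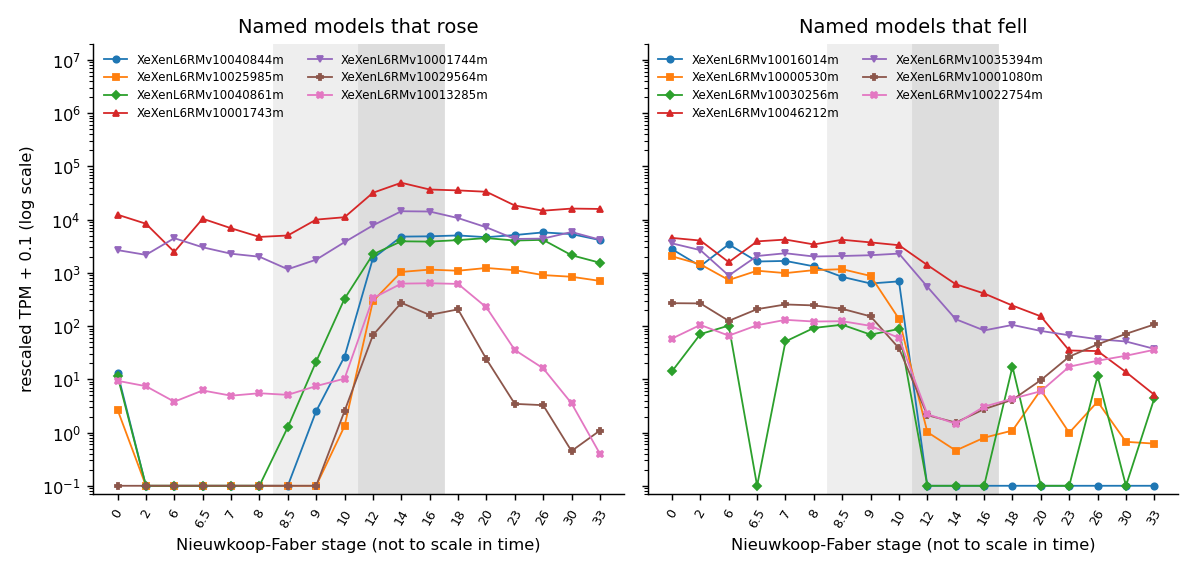
Rescaled TPM + 0.1 (vertical, log axis) of the 14 named gene models over the 18 stages, 1 library each; left, models that rose, right, models that fell, with the onset libraries in light grey and the end libraries in darker grey. XeXenL6RMv10016014m is listed at 0 in the stage 12 library, against 692 TPM in that of stage 10, and XeXenL6RMv10029564m and XeXenL6RMv10013285m are at their highest between stages 12 and 18.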

How the data were processed

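The authors deposited 1 table of TPM for 18 whole-embryo poly(A)+ libraries; the unit is read from the values, since each column sums to 1000000 or slightly more. Per the submitters' processing notes, CASAVA 1.8.2, Trimmomatic, Bowtie and RSEM were used; what each did is not recorded there, and neither header nor labels name a genome build. Per the labels' protocols, a ScripSeq kit and 10 amplification cycles made the libraries.

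From the deposited TPM, spike-ins and 2 on/off models were left out and columns rescaled to 1000000. Models that reached 5 TPM in 2 or more of the 6 libraries entered limma 3.58.1 (R 4.3.3), fitted to log2(TPM + 1) values with trended variance, two-sided, 4 residual degrees of freedom and Benjamini-Hochberg adjustment at 0.05. The procedure was tested on simulated data. With 1 library per stage, the p-values set the difference of the sides against the spread between the stages of a side. No sources state batches, clutches or replicate numbers. Consistency and class counts carry no test.

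Models were named by fixed rules: at most 2 per direction for the largest log2 change (with 10 TPM or more in each library of the higher side), the highest level among models low before or at 0 after, the largest change in mean TPM, and the largest change among models that came back. Members, rules and lists were chosen with earlier results of these data known.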

Additional observations from a re-analysis of the deposited data

How the results depend on the processing

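The 6 libraries hold 1 sample per stage, and their depth is unknown, so error within a stage is seen only through the spike-ins. No paired analysis was possible, since each library is a different stage and none has a partner on the other side. Counts are given as higher and lower at the end of gastrulation, beside 2711 and 8307 in limma and 2268 and 7497 consistent models. Median-of-ratios scaling gave 5159 and 4080 in limma and 4523 and 3540 consistent, quantile normalization 4447 and 4942 in limma and 3762 and 4208 consistent. A filter of 20 TPM, which tests fewer models, gave 1734 higher in limma and 1343 and 4948 consistent. Without stages 8.5 and 10, which leaves 1 onset library, assumed to vary like the end libraries, limma gave 1803 and 3936. There the filter of 5 TPM counted only stages 9, 12, 14 and 16. A falling model under 5 TPM in all 3 end libraries could therefore not be tested. The lower count of that fit is limited by the filter and does not show how many models fell. With all 6 libraries, a test against a difference of 1 gave 1206 and 3567, and a minimum difference of 2 gave 1422 and 3953 consistent. Leaving out 1 library at a time gave from 1788 (without stage 14; 1821 without stage 16) to 2770 higher and from 5867 to 9428 lower in limma, and from 1822 to 2549 and from 6456 to 8646 consistent. Each time the filter was counted over the libraries left. Models that needed the library left out to pass were therefore not tested, and these counts do not show the part of a single stage alone. A 4-fold limit left 200, 509, 1439, 299 and 53 models at the 5 steps in stage order, beside 473, 2040, 4637, 1936 and 393. Median-of-ratios scaling over 18 libraries gave 2417 rising models present before (848 in TPM), 1329 low before (992) and 799 that came back (308). It gave 3290 falling models present before (7222) and 888 that came back (1107). The causes of these shifts were not tested, apart from the smaller numbers of models or libraries named. The other alternatives stayed within 1.5 times, and the 14 named models kept their direction in each of their 20 or 21 alternatives, with 2 calls lost, as given above. Those with 20 are falling models that did not pass the filter without stages 8.5 and 10, so they could not be followed there.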

Other observations

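The stage 0 library listed low values of rising models that were at or near 0 from stage 2 to stage 8. Of the rising models, 42 were at 0.5 TPM or less at each of stages 2 to 8 and averaged 200 TPM or more in the later libraries. At stage 0, 41 of the 42 were above 0, with a median of 1.62 TPM and a highest value of 14.4 TPM. As a percentage of the later mean the stage 0 value had a median of 0.28% with quartiles of 0.22% and 0.33%, and it did not exceed 0.48% in any of the 42. At stages 2, 6, 6.5, 7 and 8, between 1 and 6 of the 42 were above 0, and the median was 0%. The 42 were picked for low values at these stages but not at stage 0, so this contrast follows in part from the choice. The column of stage 0 carries the suffix rr, as do those of stages 20 to 33, while none of the 6 libraries compared here does.

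Models with consecutive identifier numbers changed alike more often than models farther apart. Where a rising model was followed by a tested model with the next number, that model rose too in 193 of 734 cases (26.3%), beside 14.1% of all models tested. At a distance of 10 numbers the share was 18.6%, at 100 it was 13.3% and at 1000 it was 12.6%. For falling models the shares were 53.9% at the next number and 46.6% at a distance of 1000, beside 46.5% of all models tested. Opposite changes were frequent too: after a rising model the next number fell in 254 of the 734 cases, more often than it rose. At a distance of 1000 the second model fell in 319 of 688 cases. What the numbering follows is not stated in the files, and shared reads between neighbours were not tested.

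At stage 10, 14 models stood at 10 TPM or more and at least 4-fold above each of the other 5 libraries. At stages 8.5, 9, 12, 14 and 16 there were 4, 4, 1, 4 and 2 such models.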
